A study of Mus musculus with 6 samples.

Results

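RNA sequencing profiled hearts of mouse embryos at E9.5, embryonic day 9.5, when the looped heart tube has begun to beat and to build its first trabeculae. The libraries described here are the 3 littermate control hearts, chosen by their group label, out of 6 libraries in the study. The other 3 came from littermates with a global deletion of *Flnc*, the gene of the actin cross-linker filamin C, and were not analysed here. Levels are given for the controls alone, so that no difference between genotypes is described.

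The control embryos were on the C57BL/6 background, and the tissue was labelled as whole heart. The colony combined a floxed *Flnc* allele with Sox2Cre, a Cre driver active throughout the epiblast. The labels say only control, and give neither the *Flnc* alleles of these embryos nor whether they carried Cre. The number of hearts in a library and whether the libraries came from separate litters are not stated, so the spread between libraries may be partly technical. The methods of the study mention hearts or ventricles alone as the material, whereas the label of each library gives the whole heart. The kit selected polyadenylated RNA and kept its strand.

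The embryonic heart at this stage consists of an outer layer of cardiomyocytes and an inner layer of endocardium, separated by an extracellular matrix called cardiac jelly. Endocardial cells in the canal between atrium and ventricle are starting to invade that matrix to form cushions, the forerunners of valves, and cells from the proepicardium are spreading over the surface. Primitive red cells from the yolk sac circulate through it. The sarcomere, the contractile unit of the myocyte, is built from thick myosin filaments and thin actin filaments that are anchored at the Z disc, and its embryonic form mixes proteins that later become restricted to atrium, ventricle, smooth muscle or skeletal muscle.

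Levels are TPM, the authors' estimate of the share of RNA molecules that a transcript makes up, scaled to a total of 1000000 after division by transcript length, and summed here over the transcripts of each gene. Values of the 3 libraries are given in the order control 1, control 2 and control 3, and ± marks the SD (n = 3). The libraries held between 20451664 and 21540394 estimated counts on transcripts. A gene was called detected at 1 TPM or more in every library, which held for 13564 of 54356 genes, or 25.0%, among them 12039 protein-coding genes. At 100 TPM or more in every library there were 1353 genes, and at 1000 TPM or more 128.

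Before the heart genes are described, a difference among the libraries needs to be stated. Control 3 held transcripts of placental and decidual genes together with more globin RNA than the others, and control 1 held more liver bud and yolk sac transcripts. Their values are given after the heart genes. The globin share, the order of *Hand1* and *Hand2* and the number of genes over 2-fold are also given without control 3. Most other counts are given with all libraries only. Over the 14712 genes with a mean of at least 1 TPM, the median deviation of a library from the mean of the 3, on the log2 scale of TPM plus 0.1, was 0.03 in control 1, -0.01 in control 2 and -0.03 in control 3.

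The most abundant RNAs were mitochondrially encoded. The 13 protein genes of the mitochondrial genome, which specify subunits of the respiratory chain and ATP synthase, made up 13.5%, 15.4% and 12.1% of TPM. *mt-Atp8*, an ATP synthase subunit, stood first at 46609, 52078 and 43359.5 TPM. That value rests on a very short transcript (chrM:7766-7969) that overlaps *mt-Atp6*, so it leans strongly on the length correction. *mt-Co2* at 13926, 16749 and 12835 TPM and *mt-Co1* at 12471, 14708 and 11764 TPM, subunits of cytochrome oxidase, followed together with *mt-Atp6* and *mt-Nd4l*. Mitochondrial RNA was highest in control 2 and lowest in control 3. Copies of mitochondrial sequence annotated on chromosome 1, such as *Gm28437* at 919.8, 3004 and 2299.7 TPM, share reads with these genes and are uncertain.

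Among nuclear genes *Actc1*, the cardiac alpha-actin of the thin filament, was highest, at 11350.2, 11878 and 11351 TPM, and ranked 5 of all genes. *Myl7*, the atrial regulatory light chain of myosin, came next at 7444, 6986 and 7080.5 TPM. Both varied little, with a coefficient of variation (CV, the SD as a share of the mean) of 2.64% and 3.37%. The other nuclear genes among the 20 highest held the translation factor *Eef1a1* (6680.3 ± 129.9 TPM), the embryonic globins *Hbb-y*, *Hbb-bh1* and *Hba-x*, the glycolytic enzymes *Gapdh* (5401 ± 73.4 TPM) and *Ldha* (2845 ± 31.3 TPM), the imprinted RNA *H19* (4028 ± 250.4 TPM), *Tpt1*, the sarcomere genes *Myl4*, *Tpm1*, *Myl2*, *Tnnt2* and *Acta2*, and the ribosomal protein genes or copies *Rps12-ps3*, *Rplp1*, *Rps2* and *Rps24*. *Gm42418*, listed at 6573, 5414 and 6411 TPM, overlaps a copy of ribosomal RNA (chr17:39846958-39848788), so its level is uncertain.

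Summed by group, 83 ribosomal protein genes took 9.48%, 9.19% and 9.92% of TPM, 36 sarcomere genes 4.78%, 4.92% and 4.60%, and 19 genes of glycolysis 2.02%, 2.04% and 2.00%. These shares were stable, with an SD over the libraries of 0.367, 0.158 and 0.0220 percentage points. Globins took 1.21%, 1.15% and 3.49%. The share of globins was thus the only one of these groups whose highest library was more than 2-fold the lowest. The 100 highest genes together held 34.4 ± 1.07% of all TPM.

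**Figure D1:**
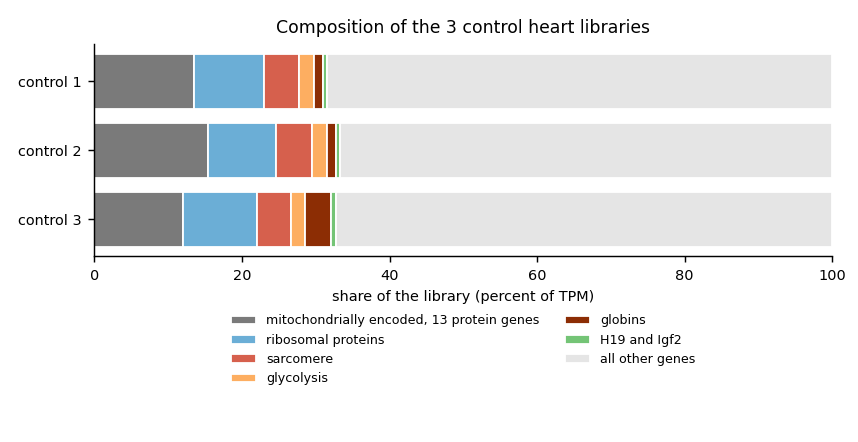
Share of TPM taken by groups of genes in each control library, as horizontal bars from 0 to 100 percent with 1 bar per library. Mitochondrial RNA is largest in control 2 at 15.4% and globin RNA is largest in control 3 at 3.49%, while the sarcomere block lies between 4.60% and 4.92%.

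Of the thick filament and M line genes 14 of 16 were detected, beside 25.0% of all genes. That share includes non-coding genes, so it is not a matched background for this list or those that follow. After *Myl7* came *Myl4*, the atrial essential light chain, at 3706, 3777 and 3517 TPM, *Myl2*, the ventricular regulatory light chain, at 3324, 3866 and 3002 TPM, and *Myh6*, alpha myosin heavy chain, at 2152, 2222 and 2145 TPM. *Myh6* exceeded *Myh7*, the beta heavy chain, which lay at 1410.3, 1697 and 1320.1 TPM. *Mybpc3*, myosin-binding protein C, reached 646, 668 and 594 TPM and the giant spring *Ttn* 116, 117 and 98.7 TPM. *Myom1*, the M line cross-linker myomesin, lay at 244, 246 and 216 TPM, whereas *Myom2* at 0.360, 0.345 and 0.572 TPM and *Myom3* at 0.167, 0.0318 and 0.244 TPM were barely seen. The atrial light chains therefore outnumbered the ventricular ones in every library.

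Of the thin filament genes 19 of 20 were detected. *Tpm1*, tropomyosin, lay at 3383, 3390.3 and 3463 TPM, with a CV of 1.31%. Cardiac troponin T, *Tnnt2*, lay at 2616, 2625 and 2522 TPM and troponin C, *Tnnc1*, at 1842, 1965 and 1754 TPM. For troponin I the slow skeletal form *Tnni1* dominated at 1784, 1815 and 1639 TPM over the cardiac form *Tnni3* at 596, 678 and 570.1 TPM. Smooth muscle actin *Acta2* was abundant at 2702, 2548 and 2472 TPM, and skeletal actin *Acta1* reached 783, 779 and 724 TPM. Nebulette, *Nebl*, a thin filament anchor of heart, was present at 670.2, 643 and 590.1 TPM, while its skeletal relative *Neb* stood at 0.349, 0.614 and 0.501 TPM. The *Nebl* level sums transcripts of different kinds. The one of highest mean share, with 810 coding bases, held 24.4, 24.4 and 25.2% of it. A transcript annotated as non-coding held 21.2, 26.0 and 23.1%.

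Promoters of the most abundant sarcomere genes are shown because these genes lead the transcriptome. Each sequence is the 250 bases before the RefSeq start (GRCm38.p6), read 5′ to 3′ on the gene's strand. Of the 12 highest sarcomere genes, 7 had a RefSeq start within 30 bases of the start of their top transcript, and 4 of these are printed. *Tpm1* is not printed because 193 of its 250 bases lie in annotated exons, but it stays in the counts below. *Tnni1* and *Myh7*, the lowest of the 7, are not printed either. Capitals mark matches on either strand. The letters searched were CATTCC, the core of the M-CAT element bound by TEAD factors, then AGATAA for GATA factors, and likewise the variant TGATAA, and for the TATA box the letters TATAAA, besides the CArG box and the MEF2 site. The CArG box and the MEF2 site can overlap the TATA letters.
*Actc1*, chr2:114052876-114053125, minus strand: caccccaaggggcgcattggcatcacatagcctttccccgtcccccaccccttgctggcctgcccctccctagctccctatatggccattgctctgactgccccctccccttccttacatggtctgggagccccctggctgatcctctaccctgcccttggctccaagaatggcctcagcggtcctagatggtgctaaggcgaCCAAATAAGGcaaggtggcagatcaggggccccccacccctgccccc
*Myl7*, chr11:5898783-5899032, minus strand: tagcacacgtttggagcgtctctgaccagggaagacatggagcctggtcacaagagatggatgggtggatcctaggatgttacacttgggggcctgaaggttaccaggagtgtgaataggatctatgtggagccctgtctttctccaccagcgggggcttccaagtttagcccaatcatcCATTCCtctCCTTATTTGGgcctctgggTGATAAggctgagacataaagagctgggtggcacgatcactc
*Tnnt2*, chr1:135836084-135836333, plus strand: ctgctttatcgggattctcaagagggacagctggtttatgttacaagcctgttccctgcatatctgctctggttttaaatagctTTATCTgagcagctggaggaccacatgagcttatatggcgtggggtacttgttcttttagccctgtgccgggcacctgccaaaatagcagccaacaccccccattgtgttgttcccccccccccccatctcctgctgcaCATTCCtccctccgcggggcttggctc
*Tnnc1*, chr14:31208062-31208311, plus strand: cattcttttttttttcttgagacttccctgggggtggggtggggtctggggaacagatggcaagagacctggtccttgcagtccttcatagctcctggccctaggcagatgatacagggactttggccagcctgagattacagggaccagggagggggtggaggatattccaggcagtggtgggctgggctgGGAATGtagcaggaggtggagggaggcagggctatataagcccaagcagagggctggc

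A CATTCC match lay in 5 of the 7 promoters, *Tpm1* among them, and in 12.6% of the 27025 promoters of the same length. *Tnni1* held none of the letters that are marked in capitals. The CArG box, bound by serum response factor, was matched in 2 of the 7, *Actc1* and *Myl7*, and in 1.4% of all. AGATAA was found in 1 and TGATAA in 1, against 10.3% and 8.16% of all promoters, and TATAAA and the MEF2 site in 0, against 13% and 3.01%. Only exact letters were searched, so the count of 0 does not show that a TATA box is absent. The similar letters tatataag near the end of the *Tnnc1* sequence, for example, were not matched. The E-box letters CANNTG, not capitalised because they are common, occurred in 6 of the 7 and in 66% of all. These are matches of letters in a short window and were not read as binding.

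Genes of the Z disc and costamere, which tie the sarcomere to the membrane and matrix, were detected in 31 of 35 cases. The highest were *Csrp3*, muscle LIM protein, at 705, 804 and 709 TPM, the chaperone *Cryab* at 551, 499 and 572 TPM, the ankyrin repeat protein *Ankrd1* at 518, 464 and 588 TPM and alpha-actinin *Actn2* at 425, 461 and 396 TPM. In the dystrophin complex *Dag1*, dystroglycan, was high at 176, 176 and 164 TPM, whereas *Dmd* lay at 9.04, 11.97 and 10.1 TPM and *Sgcd* at 2.13, 2.62 and 1.72 TPM. *Xirp2* was under 0.5 TPM in every library, at 0.0638, 0.110 and 0.0683 TPM.

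*Flnc* itself (chr6:29433256-29461883) lay at 135, 95.1 and 116 TPM, ranked 1235 and had a CV of 17.3%. Among the 1307 genes between 100 and 1000 TPM the median CV was 4.50%, and 95.9% of them had a lower CV than *Flnc*. The spread of *Flnc* was thus wide for its level, highest in control 1 and lowest in control 2. Its paralog *Flna*, the filamin of non-muscle cells, was higher at 242, 229 and 239 TPM with a CV of 2.77%. The log2 ratio of *Flna* to *Flnc* was 1.05 ± 0.22, but it was 0.12 when only protein-coding transcripts were summed, with means of 132 TPM for *Flna* and 122 TPM for *Flnc*, so the size of the difference depended on which transcript types were counted.

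Among genes of adhesion, N-cadherin, *Cdh2*, of the myocyte junction stood at 174, 169 and 152 TPM and desmoplakin, *Dsp*, of the desmosome at 161, 150.3 and 137 TPM. The integrin chain *Itgb1* lay at 311, 316 and 289 TPM, and the laminins *Lamc1* and *Lamb1* at 87, 92.3 and 83.5 TPM and 81.5, 85.4 and 81.4 TPM. *Lama4* at 50.9, 59.8 and 48.9 TPM was the main laminin alpha chain, ahead of *Lama5* at 19.6, 18.8 and 19.5 TPM, while *Lama1* lay at 5.16, 2.96 and 7.68 TPM and was highest in control 3. All 28 genes of the list of filamins and junctions were detected, with a median CV of 4.90%.

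**Figure D2:**
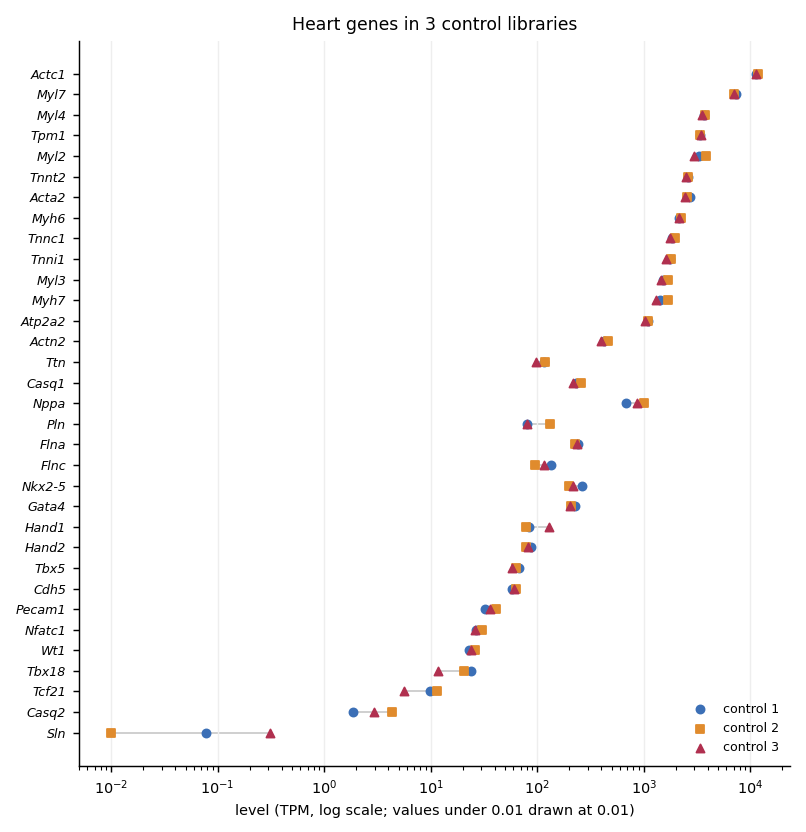
Level of 33 heart genes in TPM on a log axis, with 1 symbol for each control library and a grey line from lowest to highest. Symbols overlap for most genes above 100 TPM; *Pln*, *Nppa*, *Hand1*, *Tbx18* and *Tcf21* are spread, and *Sln* lies below 1 TPM.

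Genes of excitation and calcium handling were detected in 29 of 34 cases. The sarcoplasmic calcium pump *Atp2a2* at 1091, 1108 and 1039 TPM and the sodium-calcium exchanger *Slc8a1* at 424, 442 and 391 TPM led the list, followed by the cyclic AMP binding protein gene *Popdc2* and by *Casq1*. Calsequestrin, the calcium buffer of the sarcoplasmic reticulum, was represented by the skeletal form *Casq1* at 232, 257 and 219 TPM, and the cardiac form *Casq2* stood at 1.88, 4.37 and 2.92 TPM. *Casq2* was thus under 5 TPM in every library, where *Casq1* was over 200 TPM. Of the 2 small inhibitors of the calcium pump, phospholamban (*Pln*) was at 80.4, 132 and 80.9 TPM and sarcolipin (*Sln*), an atrial gene later, at 0.0786, 0 and 0.313 TPM. The pacemaker channel *Hcn4* lay at 49.1, 46.3 and 44.5 TPM and the ryanodine receptor *Ryr2* at 100.2, 98.9 and 95.9 TPM.

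The connexins, which form gap junctions, ran in the order *Gjc1* (70.9, 70.3 and 60.97 TPM), *Gja1* (45.6, 53.2 and 52.3 TPM) and *Gja5* (30.1, 45.2 and 33.8 TPM) in every library. *Pln*, *Gja5*, *Nppa*, *Myl2* and *Myh7* were wide for their level: between 84.8% and 98.3% of genes in the same range of levels had a lower CV. All 5, which were picked after their values had been seen, were highest in control 2: *Pln* and *Gja5* as given, and *Nppa* at 682, 1004 and 870.3 TPM. The ratio of *Myl7* to *Myl2* was 224%, 181% and 236%, and that of *Myh6* to *Myh7* 153%, 131% and 162%. Both ratios were lowest in control 2.

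Cardiac transcription factors were detected in 34 of 34 cases. The highest were *Id2*, an inhibitor of bHLH factors, at 370.5, 333 and 313 TPM, the methyltransferase gene *Smyd1* at 285, 279.9 and 253 TPM, *Nkx2-5* at 266, 201 and 217 TPM and *Gata4* at 226, 209 and 206 TPM. *Gata4* exceeded *Gata6* (log2 ratio 1.22 ± 0.06), and *Tbx20* at 174, 164 and 156 TPM exceeded *Tbx5* at 67.2, 63.98 and 58.6 TPM (log2 ratio 1.38 ± 0.03). *Hand2*, a factor of right ventricle and outflow tract, lay at 87.5, 78.2 and 82.4 TPM. *Hand1*, known from the left ventricle and also from trophoblast giant cells, lay at 84.3, 78.99 and 130.1 TPM. Without control 3 *Hand1* and *Hand2* had no fixed order, and with it their log2 ratio was 0.21 ± 0.39, under 2 SD.

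Of the second heart field genes, which mark progenitors that add to the poles of the tube, 13 of 19 were detected. Beyond *Mef2c*, which is shared with the myocardium, the highest were *Wnt11* at 41.3, 35.9 and 34.1 TPM, *Wnt5a* at 29.7, 30.8 and 22.7 TPM and *Sema3c* at 22.9, 22.1 and 18.6 TPM, all genes of the outflow region. The progenitor factor *Isl1* lay at 6.72, 8.65 and 7.66 TPM, *Fgf8* at 9.28, 6.76 and 8.94 TPM and *Tbx1* at 0.613, 0.563 and 0.531 TPM. *Tbx1* was thus below the level used for detection.

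Among secreted factors the growth factor *Igf2* led at 1990.4, 2160.3 and 1842 TPM. Atrial natriuretic peptide, *Nppa*, a hormone of atrium and trabeculae, lay at 682, 1004 and 870.3 TPM and *Nppb* at 127, 187 and 198 TPM. *Vegfa*, the endothelial growth factor, reached 113, 98.3 and 122 TPM. *Bmp10*, a trabecular factor, lay at 34.1, 45.5 and 36.01 TPM and *Nrg1*, the endocardial signal for trabeculation, at 7.48, 9.26 and 7.70 TPM. *Fgf16* was under 0.5 TPM in every library, at 0.120, 0 and 0.0629 TPM.

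Endocardial and endothelial genes were detected in 38 of 41 cases. The 4 highest were *Egfl7*, a matrix protein of vessels, at 134, 143 and 164 TPM, the hyaluronan link protein *Hapln1* at 137, 171 and 132 TPM, the adrenomedullin receptor subunit *Ramp2* at 115, 127 and 110.4 TPM and *Plvap* of endothelial diaphragms at 87.2, 104 and 93.3 TPM. *Cdh5*, vascular endothelial cadherin, lay at 58.1, 63.9 and 60.3 TPM, the VEGF receptor *Kdr* at 47.1, 49.5 and 45.5 TPM and *Pecam1* at 32.4, 41.5 and 36.1 TPM. *Nfatc1*, the endocardial valve factor, lay at 26.6, 30.6 and 25.8 TPM and *Npr3*, another endocardial gene, at 41.3, 51.6 and 43.6 TPM. *Stab2*, of sinusoids, was under 0.5 TPM in every library. Of 38 genes with a mean of at least 1 TPM, 24 were highest in control 2, but the share of all genes highest in control 2 was not counted. The median deviations were small, at -0.09 in control 1, 0.10 in control 2 and -0.03 in control 3, beside 0.03, -0.01 and -0.03 over all genes. In whole tissue a lower share of these cells and less RNA per cell cannot be told apart.

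In the cushion and matrix list 33 of 35 genes were detected, led by fibronectin, *Fn1*, at 473, 537 and 427 TPM, *Col2a1* at 374, 313 and 341 TPM, *Sparc* at 321, 346 and 329 TPM and versican, *Vcan*, at 317, 324 and 282 TPM. *Col2a1*, best known from cartilage, thus exceeded *Col3a1* at 50.1, 64.01 and 43.4 TPM and *Col1a1* at 8.76, 6.16 and 9.59 TPM, the main collagens of later fibrous tissue. Hyaluronan synthase *Has2*, which makes the cardiac jelly, lay at 45.1, 39.3 and 35.9 TPM. *Postn*, a marker of mature cushion mesenchyme, lay at 3.16, 6.44 and 4.26 TPM.

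Epicardial genes were low and were those of the heart lists that differed most between libraries. *Wt1*, the epicardial zinc finger factor, was level at 23.1, 25.8 and 23.9 TPM. *Tbx18* at 24.1, 20.6 and 11.9 TPM, *Tcf21* at 9.90, 11.5 and 5.59 TPM and the integrin *Itga4* at 11.7, 11.98 and 5.10 TPM were lower in control 3 than in either other library. The list also holds the keratin *Krt19* at 51.1, 46.6 and 104 TPM and *Dmkn* at 2.71, 0.182 and 24.9 TPM, which went the other way and are also genes of other epithelia. The median deviations were 0.11 in control 1, 0.08 in control 2 and -0.48 in control 3.

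Isoenzymes of energy metabolism differed widely in level, and 41 of 43 of that list were detected. *Slc2a1*, the basal glucose transporter, lay at 634, 607 and 619 TPM and the insulin-responsive *Slc2a4* at 6.65, 12.2 and 13.99 TPM. *Ldha* exceeded *Ldhb* with a log2 ratio of 4.31 ± 0.18, and *Hk1* exceeded *Hk2* with one of 1.34 ± 0.15. Creatine kinase was represented by the brain form *Ckb* at 336, 324 and 345 TPM, whereas the muscle form *Ckm* lay at 0.603, 2.17 and 1.39 TPM. Myoglobin, *Mb*, lay at 4.11, 5.77 and 3.83 TPM. By contrast *Cpt1b*, the muscle form of the carnitine transferase for fatty acids, at 83.5, 89.4 and 77.6 TPM exceeded the liver form *Cpt1a* at 2.38, 3.71 and 3.25 TPM, and the cytochrome oxidase subunits favoured the general forms *Cox6a1* (log2 ratio to *Cox6a2* 1.93 ± 0.21) and *Cox7a2* (to *Cox7a1* 2.02 ± 0.17).

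Genes of proliferation were uniformly present, and 32 of 33 of the cell cycle list were detected with a median CV of 3.72%. *Cdk1*, the mitotic kinase, lay at 313, 309.8 and 306 TPM, *Top2a* at 282, 274 and 266 TPM and *Mki67* at 71.97, 72.1 and 72.5 TPM. The growth-restraining *Cdkn1c* was highest of the list at 1059.6, 1212 and 1175 TPM. *Cdkn1c* is imprinted, like *Igf2* and *H19*, and the paternally expressed *Mest* was also high at 1699.9, 2055 and 1708 TPM. *Dlk1*, another imprinted gene, differed, with 126, 51.4 and 49.2 TPM and its highest value in control 1. The list of imprinted genes was written after values had been seen.

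Across 44 sets of paralogs, 91 pairs of neighbours in the order of levels were compared within libraries. The order was the same in every library for 83 pairs, and for 76 the mean log2 ratio was at least 2 SD. No test was made of these ratios. Embryonic and skeletal forms stood beside cardiac ones in several sets. *Myl1*, the fast skeletal light chain, lay at 563, 624 and 563 TPM below *Myl3* at 1528, 1681 and 1443 TPM, and *Tnnt1* and *Tnnt3* of skeletal muscle lay at 53.5, 62.2 and 54.1 TPM and 11.4, 10.1 and 11.6 TPM, far below *Tnnt2*. Neighbours that did not differ beyond their spread included *Actb* and *Actg1* (log2 ratio 0.13 ± 0.07), *Lmod1* and *Lmod3* (0.03 ± 0.16), *Hey2* and *Hey1* (0.31 ± 0.18), *Notch1* and *Notch3* (0.33 ± 0.44), *Ccnd2* and *Ccnd3* (0.07 ± 0.23) and *Hbb-y* and *Hbb-bh1* (0.18 ± 0.19).

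Transcripts of a gene were then compared. Of 11517 detected genes with 2 or more annotated transcripts, 3915, or 34.0%, had the same top transcript with at least 80% of the gene's TPM in every library, and the top transcript was the same in every library for 10019. Among 54 genes chosen for their isoforms, 51 had more than 1 transcript. The top transcript was the same in every library for 46 of the 51, and 16 were dominated at 80%. *Actc1*, *Actn2*, *Tnni1*, *Myl4* and *Kdr* were of that kind, the lowest of them *Tnni1* with 96.9, 95.7 and 95.8%. Shares are given without an error per transcript, since the deposited values hold none, and short fragments annotated as retained introns take part of the TPM of long genes.

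The alternative coding exons below are shown because they set apart the first and second protein-coding transcript of genes whose use of both could be read from these libraries. Each is read 5′ to 3′ from the annotated transcript (GENCODE, GRCm38), with the exon in capitals between 12 bases of the neighbouring exons.
*Flnc* exon of 99 bases, chr6:29452799-29452897, plus strand: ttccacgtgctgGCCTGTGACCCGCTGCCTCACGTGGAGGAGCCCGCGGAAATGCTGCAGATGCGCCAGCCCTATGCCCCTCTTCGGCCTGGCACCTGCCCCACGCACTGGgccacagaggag
*Flna* exon of 24 bases, chrX:74232967-74232990, minus strand: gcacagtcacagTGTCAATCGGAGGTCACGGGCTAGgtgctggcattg
*Pkm* downstream exon of 167 bases, chr9:59675568-59675734, plus strand: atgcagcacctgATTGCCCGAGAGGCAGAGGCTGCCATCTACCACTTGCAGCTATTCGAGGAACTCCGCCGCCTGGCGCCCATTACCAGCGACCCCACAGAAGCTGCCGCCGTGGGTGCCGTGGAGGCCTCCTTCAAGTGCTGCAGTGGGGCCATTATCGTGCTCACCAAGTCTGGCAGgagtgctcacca
*Pkm* upstream exon of 167 bases, chr9:59675029-59675195, plus strand: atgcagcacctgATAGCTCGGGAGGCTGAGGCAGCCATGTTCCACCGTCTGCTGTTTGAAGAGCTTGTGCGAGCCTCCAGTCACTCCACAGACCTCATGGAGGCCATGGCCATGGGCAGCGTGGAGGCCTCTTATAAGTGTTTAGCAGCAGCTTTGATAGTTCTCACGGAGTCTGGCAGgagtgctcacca
*Mef2c* first exon of the pair, 144 bases, chr13:83625265-83625408, plus strand: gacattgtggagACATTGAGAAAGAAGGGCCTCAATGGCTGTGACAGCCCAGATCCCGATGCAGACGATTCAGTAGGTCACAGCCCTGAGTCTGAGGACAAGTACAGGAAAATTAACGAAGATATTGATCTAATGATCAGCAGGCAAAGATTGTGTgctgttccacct
*Mef2c* second exon of the pair, 138 bases, chr13:83625470-83625607, plus strand: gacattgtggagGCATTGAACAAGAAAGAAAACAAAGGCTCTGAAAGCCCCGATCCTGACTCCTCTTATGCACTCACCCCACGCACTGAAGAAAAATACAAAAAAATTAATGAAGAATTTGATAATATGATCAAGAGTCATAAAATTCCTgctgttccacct
*Mef2c* exon of 24 bases, chr13:83654598-83654621, plus strand: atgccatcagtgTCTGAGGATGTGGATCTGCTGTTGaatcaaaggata
*Mef2a* exon of 24 bases, chr7:67244521-67244544, minus strand: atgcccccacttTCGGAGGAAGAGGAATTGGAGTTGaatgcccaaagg
*Vegfa* exon of 132 bases, chr17:46020991-46021122, minus strand: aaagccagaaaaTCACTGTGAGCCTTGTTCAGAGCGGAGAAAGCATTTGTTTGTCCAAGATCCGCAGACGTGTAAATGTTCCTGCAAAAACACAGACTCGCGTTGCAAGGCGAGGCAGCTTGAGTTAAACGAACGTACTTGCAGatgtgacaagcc
*Pecam1* exon of 57 bases, chr11:106671742-106671798, minus strand: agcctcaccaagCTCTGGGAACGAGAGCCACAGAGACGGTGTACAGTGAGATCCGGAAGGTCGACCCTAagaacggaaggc

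The use of each exon was the TPM of transcripts that contain it as a share of the TPM of all transcripts that span its place. The *Flnc* exon of 99 bases, or 33 codons, was used in 14, 8.65 and 12.1% over the 2 *Flnc* transcripts that span its place. Of the TPM of the whole gene, the transcript with it held 12.4, 7.99 and 10.9%. The top transcript, without it, held 76.4, 84.3 and 78.8% of the gene, so most *Flnc* RNA lacked the exon. In *Flna* the exon of 24 bases, or 8 codons, was used in 41.3, 55.2 and 48.4%, close to an even split that varied between libraries.

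In *Pkm*, pyruvate kinase, the 2 exons of 167 bases exclude each other. The downstream one, which makes the PKM2 form of embryonic and dividing cells, was used in 73.8, 65.7 and 70%. The upstream one, which makes the PKM1 form of adult muscle, was used in 26.2, 34.3 and 30%. Both forms were present in all 3 libraries, with PKM2 in the majority.

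In *Mef2c*, a myocyte enhancer factor, the first exon of the exclusive pair was used in 67.9, 72.3 and 66.9% and the second in 24.5, 22.3 and 26.3%. The short exon of 24 bases was used in 55.7, 59.8 and 56.01% of *Mef2c* and the related exon of *Mef2a* in 67.9, 60.98 and 72.1%. The exon is known to be included preferentially in striated muscle and brain. In *Vegfa* the exon of 132 bases, which adds a heparin-binding stretch to the secreted factor, was used in 68.5, 74.5 and 69.2%. In *Pecam1* the exon of 57 bases was used in 50.1, 39.8 and 52.8%.

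Cardiac troponin T was split almost evenly. Its first transcript took 35.4, 37.7 and 34.3% and its second 33.2, 30.4 and 32.2% of *Tnnt2*, and they differ by a few bases in the exons near the start. *Tpm1* was dominated by 1 transcript at 90.5, 91.6 and 87.8%. For *Ttn* the top transcript of 192 exons held 77.1, 78.8 and 74.3%. *Flt1*, a VEGF receptor, divided between a transcript of 2064 coding bases that stops before the kinase part (51.8, 54.7 and 50.4%) and the full one of 3999 coding bases (39.04, 43.6 and 44.9%). *Dmd* was led by a short form of 1851 coding bases (60.96, 53.7 and 60.8%), and the full muscle form of 11034 coding bases held 0.942, 1.06 and 0.896 TPM. *Nebl*, *Wt1*, *Flna*, *Fgfr2* and *Mbnl1* had no transcript that led in every library.

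**Figure D3:**
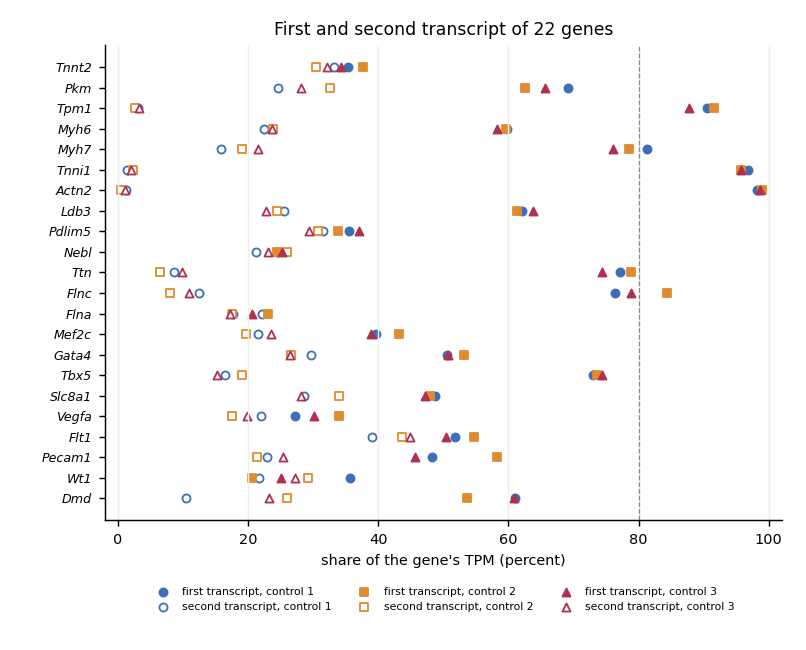
Share of the gene's TPM, in percent, held by the first transcript (filled symbols) and the second (open symbols) of 22 genes in each control library; the dashed line marks 80%. First and second shares lie close together for *Tnnt2*, *Pdlim5*, *Nebl*, *Flna* and *Wt1* and far apart for *Actn2*, *Tnni1* and *Tpm1*.

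Blood genes were abundant in every library. The embryonic globins *Hbb-y*, at 3935, 4056 and 10039.9 TPM, *Hbb-bh1*, at 3543, 3111 and 10034 TPM, and *Hba-x*, at 2270.1, 2144 and 6308 TPM, carry oxygen in primitive red cells. The globins summed to 12091, 11460.5 and 34894 TPM. All 8 globins with a mean of at least 1 TPM were highest in control 3, but the share of all genes highest there was not counted. Without control 3 the mean share of globins was 1.18% of TPM, and with it 1.95%.

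The adult genes *Hbb-bs*, at 151, 41.5 and 1261 TPM, and *Hbb-bt*, at 29.8, 14.7 and 206 TPM, differed more between libraries than the embryonic ones. As a share of the 4 beta-like globins named, these adult genes made up 2.35%, 0.777% and 6.81%. *Hba-a1* and *Hba-a2*, which are nearly identical in sequence, lay at 881, 847 and 2743 and 1277, 1243 and 4293 TPM, and the split between them is uncertain. Of 28 erythroid genes with a mean of at least 1 TPM, 27 were highest in control 3, but the share over all genes was not counted. The median deviations were -0.30 in control 1, -0.48 in control 2 and 0.87 in control 3, beside 0.03, -0.01 and -0.03 over all genes. *Alas2*, the enzyme that starts haem synthesis in red cells, lay at 29.8, 25.3 and 86.6 TPM, the anion exchanger *Slc4a1* at 30.5, 24.5 and 72.95 TPM and the factor *Gata1* at 5.94, 3.50 and 13.4 TPM. More red cells of the heart, more RNA per red cell and blood from outside the heart cannot be told apart here.

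Megakaryocyte and platelet genes were mostly low, with a median level of 1.35 TPM over the list, and 14 of 26 were detected. The marker *Pf4*, platelet factor, lay at 6.74, 4.39 and 5.01 TPM and *Itga2b* at 8.28, 6.33 and 10.3 TPM. The list summed to 93.9, 86.6 and 124 TPM, so most of its TPM lay in other members. Its median deviations were -0.07 in control 1, -0.20 in control 2 and 0.24 in control 3. Macrophage and leukocyte genes were mostly low, with a median level of 0.467 TPM over the list, and 3 of 20 were detected. *Ptprc* lay at 0.121, 0.0358 and 0.344 TPM, *Adgre1* at 0, 0 and 0.242 TPM and the growth factor receptor *Csf1r* at 1.17, 0.339 and 2.73 TPM. The list summed to 21.9, 23.5 and 40.7 TPM, so most of its TPM lay in members not named here. Over its 6 genes with a mean of at least 1 TPM the median deviations were 0.10 in control 1, -0.81 in control 2 and 0.80 in control 3.

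Placental genes were prominent in control 3, present in control 1 and lowest in control 2. *Prl2c3*, a proliferin of trophoblast giant cells, lay at 31.05, 1.56 and 756 TPM and *Prl3d1*, placental lactogen, at 14.2, 1.53 and 366 TPM. *Prl2c2* lay at 9.44, 0.710 and 409 TPM and *Prl7a1* at 5.22, 0.135 and 252 TPM. The Prl2c and Prl3d genes are close copies, so reads can be shared within each of those groups.

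Genes outside the prolactin family followed the same order of libraries. *Cyp11a1*, which starts steroid synthesis, lay at 8.11, 0.390 and 173 TPM, the cholesterol carrier gene *Star* at 9.57, 0.767 and 167 TPM and the X-linked homeobox gene *Rhox6* at 4.95, 0.225 and 69.9 TPM. *Prl8a2*, a prolactin relative made by the decidua, lay at 72.9, 4.29 and 487 TPM, and *Hoxa10* and *Hoxa11*, homeobox genes of uterine stroma, at 2.48, 0.128 and 22.8 TPM and 1.01, 0 and 8.40 TPM. All 15 genes of the trophoblast list with a mean of at least 1 TPM were highest in control 3, but the share over all genes was not counted. The whole list of 26 summed to 116, 23.98 and 2568 TPM. Markers of the later labyrinth and spongiotrophoblast layers were low or at 0: *Tpbpa* lay at 0.180, 0 and 1.71 TPM, *Gcm1* at 0.216, 0.0310 and 0.185 TPM, *Syna* at 0, 0 and 0.0408 TPM and *Ctsq* at 0, 0 and 0 TPM. These lists were written after the pattern had been seen, so their medians describe it and do not test it. The part of such transcripts in the levels of other genes was not tested.

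**Figure D4:**
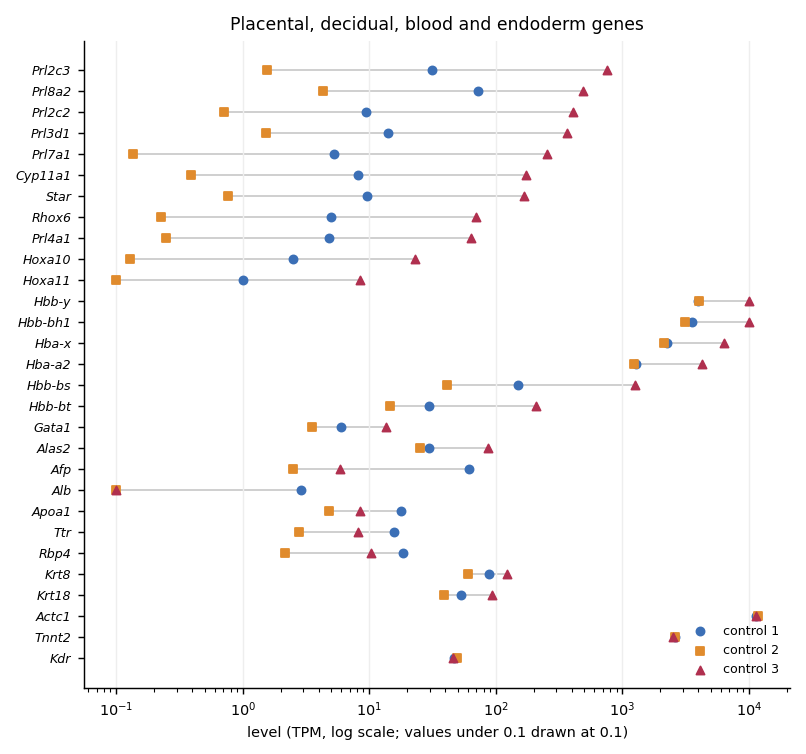
Level of placental, decidual, blood and endoderm genes, with *Actc1*, *Tnnt2* and *Kdr* for comparison, in TPM on a log axis; values under 0.1 TPM are drawn at 0.1, and each symbol is 1 control library. Placental and decidual genes are highest in control 3 and lowest in control 2, *Afp* and *Alb* are highest in control 1, and the 3 comparison genes overlap.

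Control 1 held genes of liver bud and yolk sac endoderm. *Afp*, alpha-fetoprotein, lay at 61.02, 2.49 and 5.91 TPM, *Rbp4* and *Ttr*, carriers of retinol and thyroid hormone, at 18.6, 2.15 and 10.3 TPM and 15.8, 2.80 and 8.19 TPM, and *Apoa1* at 17.8, 4.79 and 8.41 TPM. *Alb*, albumin, was at 2.87, 0 and 0 TPM, where 3 counts would have given 0.123 to 0.124 TPM. Of 21 genes of the list with a mean of at least 1 TPM, 16 were highest in control 1 and 15 lowest in control 2. The shares of all genes highest or lowest in these libraries were not counted. The median deviations were 0.90 in control 1, -1.04 in control 2 and -0.05 in control 3, beside 0.03, -0.01 and -0.03 over all genes. *Apoe* at 229.7, 215 and 210.2 TPM and *Ctsl* at 180.3, 178 and 188 TPM, which many cell types express, were level.

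Markers of other neighbouring tissues were examined as well. Of the pharyngeal and gut epithelium genes 5 of 20 were detected, beside 25.0% of all genes. That share covers non-coding genes too, and 12039 of the 13564 detected genes were protein-coding. It is therefore not a matched background for lists of marker genes, and the share among protein-coding genes alone was not computed. Among the 5 were the keratins *Krt8* at 87.8, 59.9 and 123 TPM and *Krt18* at 53.04, 38.9 and 92.5 TPM. Both keratins were again highest in control 3. *Epcam* lay at 2.66, 0.692 and 1.65 TPM and *Shh* was at 0 in every library, where 3 counts would have given 0.0829 to 0.0851 TPM. Of 15 surface ectoderm genes only *Perp*, at 38.3, 48.03 and 39.9 TPM, was detected. *Tfap2c*, a factor of ectoderm and of trophoblast, was at 1.03, 0.0906 and 10.5 TPM.

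Of the neural genes 6 of 23 were detected, beside the same 25.0% of all genes, and 14 were under 0.5 TPM in every library. The highest were *Nes* at 56.3, 59.02 and 54 TPM and *Ednrb* at 26.1, 32.6 and 22.8 TPM, both also known from endothelium, and *Crabp1*, *Tubb3*, *Sox3* and *Elavl4* were the other four detected. *Foxd3*, *Neurog1*, *Neurog2* and *Olig2* were at 0 in every library. Of the somite and skeletal muscle list 7 of 25 were detected, again beside 25.0% of all genes. All 7 were contractile, structural or channel genes, such as *Myl1*, *Des* and *Mylpf* at 66.4, 56.6 and 59.7 TPM. The determination factors *Myod1* and *Myf5* were at 0 in every library, where 3 counts would have given 0.134 to 0.137 TPM and 0.118 to 0.121 TPM, and *Myog* was at 0, 0 and 0.0571 TPM.

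All 5 cardiomyocyte, all 7 endothelial and all 4 epicardial markers used to check the tissue were detected, as were all 5 erythroid ones. Of 5 liver and yolk sac markers 3 were detected, of 4 megakaryocyte markers 2, and of the macrophage, gut, surface ectoderm, neural and somite markers 0 were. As detection needs 1 TPM in every library, these counts cannot show whether such cells were present in only some libraries. *Epcam* lay at 2.66, 0.692 and 1.65 TPM and *Csf1r* at 1.17, 0.339 and 2.73 TPM. The trophoblast list, at 2568 TPM in control 3, had only 4 of 26 genes detected. The data held markers of heart tissue and blood in every library, together with the placental and endoderm transcripts described for controls 3 and 1. *Xist* at 50.8, 55.8 and 66.3 TPM and the Y-linked *Ddx3y* at 24.6, 24.8 and 25.6 TPM and *Eif2s3y* at 32.4, 46.5 and 34.9 TPM were present side by side in every library.

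Spread depended on level. The median CV was 21.5% for 3830 genes between 1 and 5 TPM, 6.94% for 5933 genes between 10 and 50 TPM and 4.50% for 1307 genes between 100 and 1000 TPM. Of 8679 protein-coding genes with a mean of at least 10 TPM, 120, or 1.38%, were over 2-fold between the highest and lowest library. Of these 120, 103 were highest in control 3 and 98 lowest in control 2. Without control 3 the number over 2-fold was 49, without control 1 it was 106 and without control 2 it was 97. A ratio over 2 libraries cannot exceed that over 3, so none of these counts could be above 120.

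The widest ratios were those of placental genes. *Prl2c2* differed 575-fold, *Prl2c3* 486-fold, *Cyp11a1* 445-fold, *Prl3d1* 239-fold and *Star* 217-fold, each between control 3 and control 2. In control 2 these ratios rest on few estimated counts, 4.51 for *Prl2c2*, 9.49 for *Prl2c3*, 12 for *Cyp11a1*, 12 for *Prl3d1* and 30 for *Star*, so their size is imprecise. For *Prl7a1*, *Rhox9*, *Rhox6*, *Prl4a1* and *Prl3d2*, which complete the 10 of widest ratio, control 2 held 1 to 3 counts, and no ratio is given. In control 3 these 5 held 1875, 844, 923, 511 and 225 estimated counts. *Ly6a*, *Nccrp1* and *Cxcl14* were listed at 0 in control 2 and were also highest in control 3. Of the 33 sarcomere genes with a mean of at least 1 TPM 0 differed over 2-fold, and of 31 Z disc and costamere genes 0 did. Over protein-coding genes with a mean of at least 10 TPM the share was 1.38%. Counts of 0 in lists this short therefore do not set these genes apart.

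**Figure D5:**
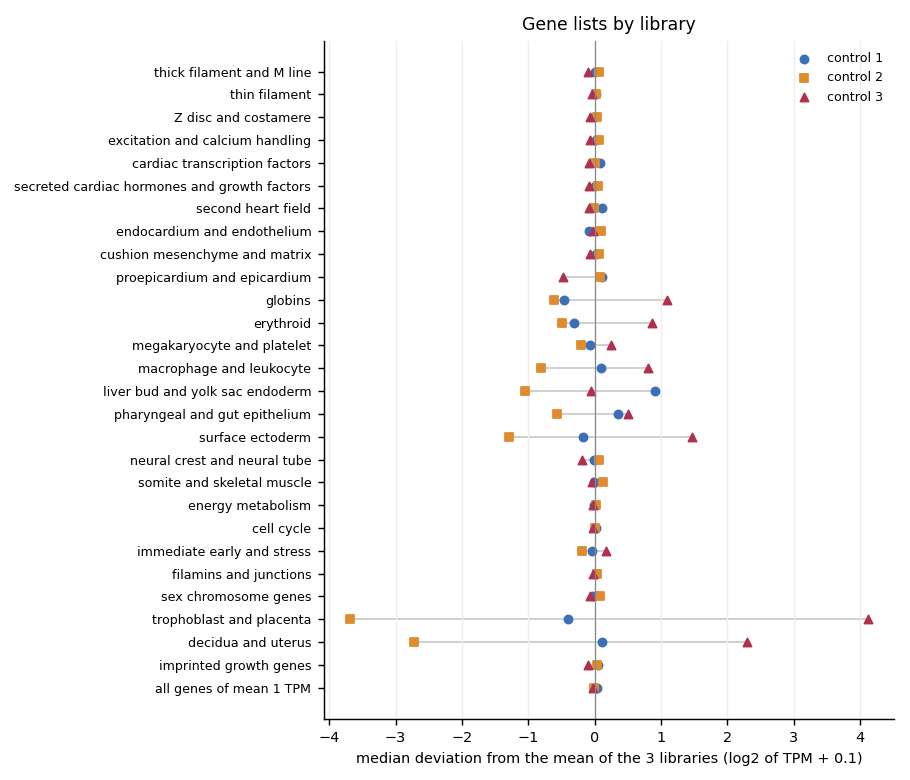
Median deviation of each gene list from the mean of the 3 control libraries, in log2 of TPM plus 0.1, with 1 symbol per library and all genes of mean 1 TPM or more on the last line. The filament and Z disc lists lie between -0.10 and 0.07; globin, erythroid, trophoblast and decidua lists are highest in control 3 and the liver and yolk sac list in control 1.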

How the data were processed

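Polyadenylated RNA of E9.5 hearts was sequenced, and 3 of the 6 libraries, the controls, were analysed. The notes of the submitters name Salmon, and the files are tagged with the transcript release M22. Per transcript, the deposited files list the authors' TPM, the estimated count of reads and the length with its effective value. The notes also name DESeq2 1.22.2 and the builds GRCm38.p6 and mm10. Transcripts were assigned to genes with GENCODE M21 (GRCm38), and 521 of 140658 (0.370%) had no entry, with 0.108% to 0.125% of estimated counts. TPM were summed per gene. Gene names come from that annotation. Of the names in the lists 3 had no entry.

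Descriptions are the values per library, mean, SD and CV; no test was made, since no groups are compared. Lists were summarised by counts, sums and the median deviation on log2 of TPM plus 0.1, over genes with a mean of at least 1 TPM. Counts of list members highest or lowest in a library have no such count over all genes beside them. Named genes were drawn from the 20 nuclear and 5 mitochondrial genes of highest level, paralog sets, isoform genes, and the 10 of widest ratio. From the lists came the 4 highest members, those under 0.5 TPM and some others. For some lists the highest members are not named. Members and lists were chosen with earlier results of these data known, and the lists of trophoblast, decidua and imprinted genes after the values had been seen, as was the measure of exon use. The 3 libraries differed beyond counting noise in each pair, with a chi-square per degree of freedom from 7.88 to 20.2, and each was counted as 1 sample. The functions were tested on simulated data. Alternatives used edgeR 4.0.16 and DESeq2 1.42.0 only for scaling of estimated counts rounded to whole numbers.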

Additional observations from a re-analysis of the deposited data

Results flagged for a closer look

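Transcripts with no entry in the annotation used took up to 0.125% of the estimated counts of a control library, far above what 3 counts would give. They entered no gene level. Groups of 3 libraries were too small for a test of single deviating samples.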

How the results depend on the processing

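No paired analysis was possible because the control libraries are 1 group and no groups were compared. With TPM computed from annotated instead of effective length the sarcomere share was 6.02% and the mitochondrial share 8.31%. With protein-coding transcripts alone they were 5.41% and 16.0%, and without mitochondrial genes and globins the sarcomere share was 5.66%. The mitochondrial share in these alternatives was taken over every gene of the mitochondrial genome. It is not the share of the 13 protein genes given earlier. The median CV over genes, 8.40%, lay between 6.33% and 7.30% without 1 library each, was 6.76% on TMM-scaled CPM and 6.06% for genes with a mean of at least 10 TPM. The number of protein-coding genes over 2-fold lay between 49 and 106 without 1 library each. A fall in both is built in when 1 library is left out, since a CV of 2 values tends to be lower and a ratio over 2 libraries cannot be higher. The genes with one dominant isoform numbered 7986 at 50% of the gene TPM and 2383 at 90%. The median share of the top transcript, 72.7%, lay between 72.6% and 72.8% without 1 library each, was 84.3% in estimated counts and 82.4% over protein-coding transcripts. The order of *Gata6* and *Gata5* turned with annotated lengths (log2 ratio -0.28, against 0.38 ± 0.10), and that of *Mef2d* and *Mef2a* with protein-coding transcripts alone (-0.13, against 0.13 ± 0.05). That of *Flna* to *Flnc* is given beside these genes. The cause of the other changes was not tested. Of the globin share, 1.95%, control 3 carried most: without control 3 it was 1.18%. The depth limited genes near 0, as given beside them.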

Other observations

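Of 17 immediate early and stress genes with a mean of at least 1 TPM, 13 were highest in control 3, but the share over all genes was not counted. *Fos* lay at 15.2, 13.4 and 18.2 TPM, *Egr1* at 8.71, 10.2 and 11.2 TPM and the heat shock gene *Hspa1a* at 0.857, 0.748 and 1.60 TPM. *Atf4* at 137, 130.2 and 145 TPM and *Jund* at 144, 129 and 127 TPM led that list. *Fosl1* at 0.400, 0.0845 and 9.65 TPM, a factor also known from trophoblast, and *Hmox1* at 26.6, 25.8 and 46.7 TPM, the haem-degrading enzyme, were highest in control 3. The median deviations of the list were -0.04 in control 1, -0.19 in control 2 and 0.17 in control 3.

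The metallothioneins *Mt1* at 60.4, 35.6 and 289.8 TPM and *Mt2* at 47.95, 33.7 and 354 TPM and the calcium-binding *S100a6* at 27.03, 4.19 and 242 TPM had the same order of libraries as the placental genes, highest in control 3 and lowest in control 2. These 3 genes were chosen after their values had been seen.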
